A study of Mus musculus with 4 samples.

Results

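Interferon-stimulated genes are the transcripts that a cell makes when interferon reaches it, and 39 of them were followed in adult mouse kidney. They were chosen by gene symbol, with earlier results of these data known, and all 39 were found in the deposited table of 54232 genes. Poly(A) RNA was sequenced from wild-type mice (WT, 2 libraries) and from mice that carry 1 LacZ copy of Tshz3 (Tshz3+/LacZ, HET, 2 libraries). All mice were 60 days old, and the labels give no treatment. Each library is a pool of RNA from kidneys extracted one by one, and the labels give 3 kidneys for a pooled group. The labels call the preparations of a genotype independent but do not say whether they hold different kidneys, so p-values cover only the pool-to-pool spread, which may be technical in part. Sex, strain and the design of the LacZ copy are not stated in the labels.

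Interferons are secreted proteins of antiviral defence. Type I interferons (alpha, beta and relatives) bind the IFNAR1 and IFNAR2 receptor, which through the kinases JAK1 and TYK2 activates a complex with STAT2 and IRF9 that binds a promoter element called the interferon-stimulated response element (ISRE). Type II interferon (gamma) binds the IFNGR1 and IFNGR2 receptor and acts through a different promoter element, the gamma-activated site (GAS). Many interferon-stimulated genes answer to both types and are also made at low levels without infection.

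The libraries held between 62631750 and 70792042 reads, of which 30403 to 46854 fell on the 39 genes. Tshz3 was not lower in the pools labelled HET: it was at 0.653 and 0.723 TPM (transcripts per 1000000 transcripts) in the WT pools and 0.833 and 0.760 TPM in the pools labelled HET, from 104 to 145 reads, with a log2 fold change of 0.13 ± 0.17 (SE; adjusted p = 0.790 by limma). The value sums all annotated exons and may count exons kept in the LacZ allele. The labels were thus not borne out by this gene, and every direction below is that of the libraries as labelled. Kidney identity was plain, with the summed level of 10 proximal tubule markers, mostly Kap, between 38995 and 97749 TPM per pool. Levels are TPM brought to 1 scale across the 4 libraries, and a log2 fold change is HET over WT on log2(TPM + 0.5), where the added 0.5 pulls low genes toward 0.

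The promoter sequences are shown first because the ISRE is what the genes are known to share, and it played no part in their choice. RefSeq promoters (build GRCm38.p6, the same assembly as the mm10 of the files), from 250 bases before to 50 bases after the gene start, were found for 28 of the 39 genes, and 24 of the 28 run on into a transcript of the gene on its strand. The others, for which no promoter is shown, are Dhx58, Ifi27, Iigp1, Mx1, Mx2, Oas2, Parp9, Parp14, Rtp4, Usp18 and Zbp1. The stretches below run 5′ to 3′ on the strand of the gene and end before its RefSeq start. Capitals mark the ISRE core (GAAA, any 2 bases, GAAA) or its reverse complement, and overlapping cores run together.
Isg15: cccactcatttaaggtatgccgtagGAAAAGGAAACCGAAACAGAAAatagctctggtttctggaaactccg
Ifit1: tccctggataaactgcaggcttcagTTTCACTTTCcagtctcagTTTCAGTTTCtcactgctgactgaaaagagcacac
Ifit3: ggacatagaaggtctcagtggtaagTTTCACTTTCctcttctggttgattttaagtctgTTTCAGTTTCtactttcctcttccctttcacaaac
Ifit3b: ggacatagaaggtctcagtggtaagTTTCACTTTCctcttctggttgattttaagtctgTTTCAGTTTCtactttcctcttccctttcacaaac
Oas1a: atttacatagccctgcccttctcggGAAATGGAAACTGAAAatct
Igtp: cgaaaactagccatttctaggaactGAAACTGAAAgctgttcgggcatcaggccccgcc
Irgm2: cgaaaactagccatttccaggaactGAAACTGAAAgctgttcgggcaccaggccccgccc
Cxcl10: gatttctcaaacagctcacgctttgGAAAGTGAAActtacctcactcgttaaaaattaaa
Stat2: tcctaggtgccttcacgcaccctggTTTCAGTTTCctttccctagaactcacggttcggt

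These stretches lie at chr4:156200850-156200921 (minus strand) for Isg15, chr19:34640760-34640838 for Ifit1, chr19:34583348-34583441 for Ifit3, chr19:34607744-34607837 for Ifit3b, chr5:120907526-120907570 (minus strand) for Oas1a, chr11:58199497-58199555 for Igtp, chr11:58214888-58214947 for Irgm2, chr5:92349068-92349127 (minus strand) for Cxcl10 and chr10:128270251-128270310 for Stat2. In Isg15, 3 overlapping cores fill positions -78 to -57 counted from the gene start. The Stat2 window, placed by its RefSeq start, ends at 128270547, before the exons counted for Stat2 begin at 128270559. The Irgm2 stretch, also placed by a RefSeq start, lies inside the span counted for Irgm2 (58199618 to 58222782). The stretches of the neighbours Ifit3 and Ifit3b are the same in all 94 bases, and those of Igtp and Irgm2 are the same in 57 of 59 bases. Searched on both strands, the ISRE core was in the promoters of 17 of the 28 genes (60.7%), against 3.99% of 27025 genes with a promoter of this length. The GAS core (TTC, any 3 bases, GAA), which reads the same on both strands, was in 7 of the 28, against 9.55% of all. Bst2, Igtp, Irgm2 and Oas1a held both, and in Bst2 the matches overlap. A match is a description of letters and was not tested as a binding site. A gene with no match lacks only these letters in this window.

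No interferon-stimulated gene passed the test between genotypes, but every one had a higher mean in the pools labelled HET, with Rsad2 at -0.0044 (log2) instead under median-of-ratios scaling. Of 39 genes 0 were called by limma at a Benjamini-Hochberg adjusted p below 0.1, and the lowest adjusted p = 0.622. Over all 22356 genes tested 2 were called (0.00895%), of which 1 was higher in HET (0.00447%). At an unadjusted p under 0.05 there were 15 of the 39 higher and 0 lower by limma, where 3.81% of all tested genes were higher and 3.46% lower. By limma-voom on reads, 0 were called and 16 were higher at that level. The log2 fold change was above 0 for 39 of 39 genes (38 under median-of-ratios scaling), against 51.1% of all tested genes, and its median was 0.36 (quartiles 0.20 and 0.50), against 0.0067 over all tested genes. Both pools labelled HET lay above both WT pools for 30 of the 39 genes, against 21.8% of all tested genes, and for 0 genes both lay below, against 23.1%. These genes share regulators and the same 4 libraries, so they are not 39 separate observations. They were also chosen with earlier results of these data known, so the counts describe the list and are no test of it. With 2 pools against 2, an exact permutation test of 1 gene cannot give a two-sided p below 0.333.

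**Figure D1:**
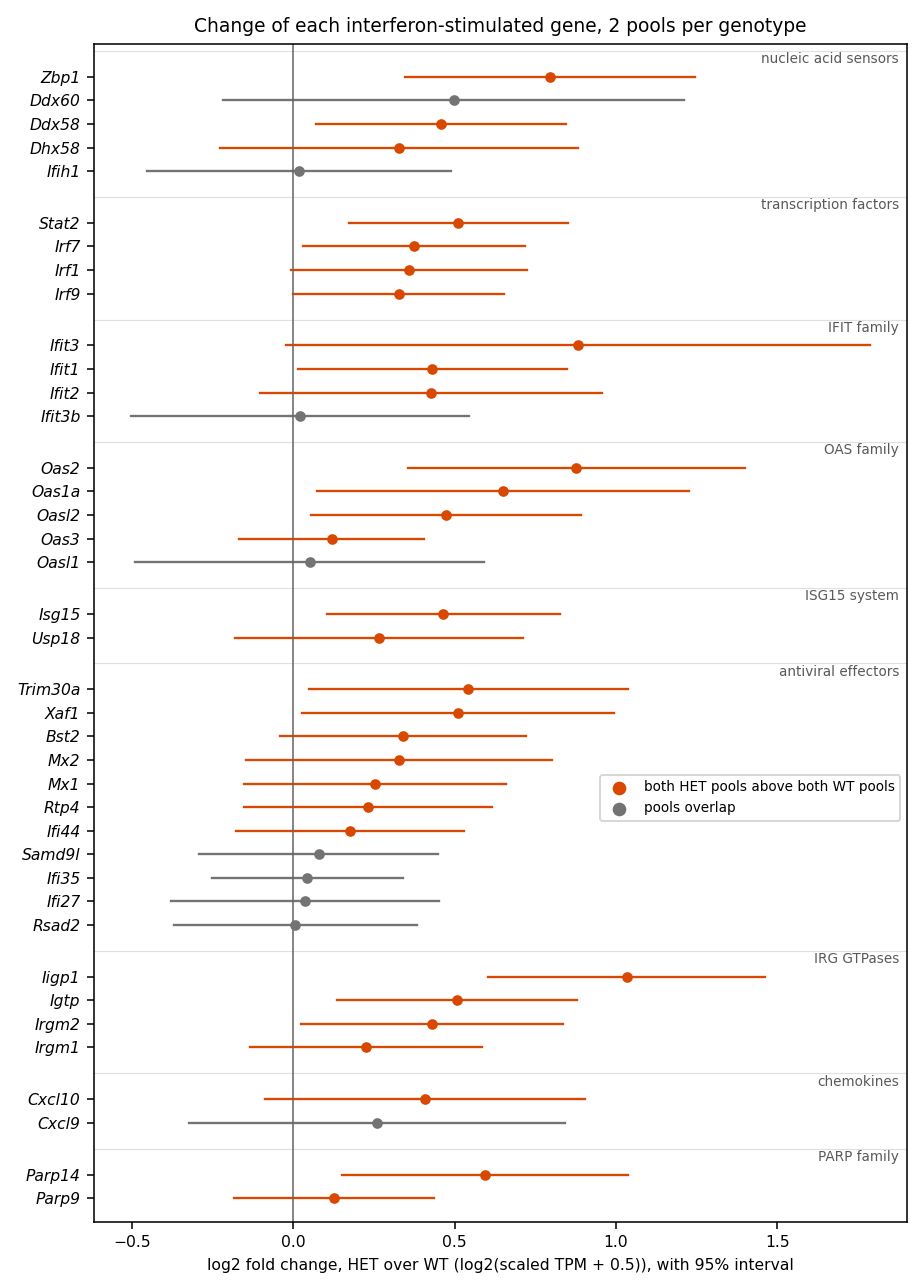
Log2 fold change of each of the 39 genes, HET over WT, on log2(scaled TPM + 0.5), with the 95% confidence interval from limma (n = 2 pools per genotype); orange marks the 30 genes with both HET pools above both WT pools. All 39 points lie above 0, from 0.0062 for Rsad2 (-0.0044 under median-of-ratios scaling) to 1.03 for Iigp1, and 15 intervals leave out 0 before any adjustment.

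The WT pools differed from each other in the same genes. WT replicate 1 was below WT replicate 2 for 32 of the 39 genes, with a median step of 0.21 on the log2 scale, where the median step over all tested genes was -0.00052. It held the lowest of the 4 values for 29 genes. Between the HET pools the median step from replicate 1 to replicate 2 was -0.044, and replicate 1 was the lower pool for 16 genes. Against WT replicate 2 alone, HET replicate 1 was higher for 35 genes (median 0.31) and HET replicate 2 for 33 (median 0.22). Without WT replicate 1 the median log2 fold change was thus 0.24, with 36 genes above 0. That fit holds a single WT pool, so only its effect size is given here. Without WT replicate 2 instead, the median was 0.41.

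**Figure D2:**
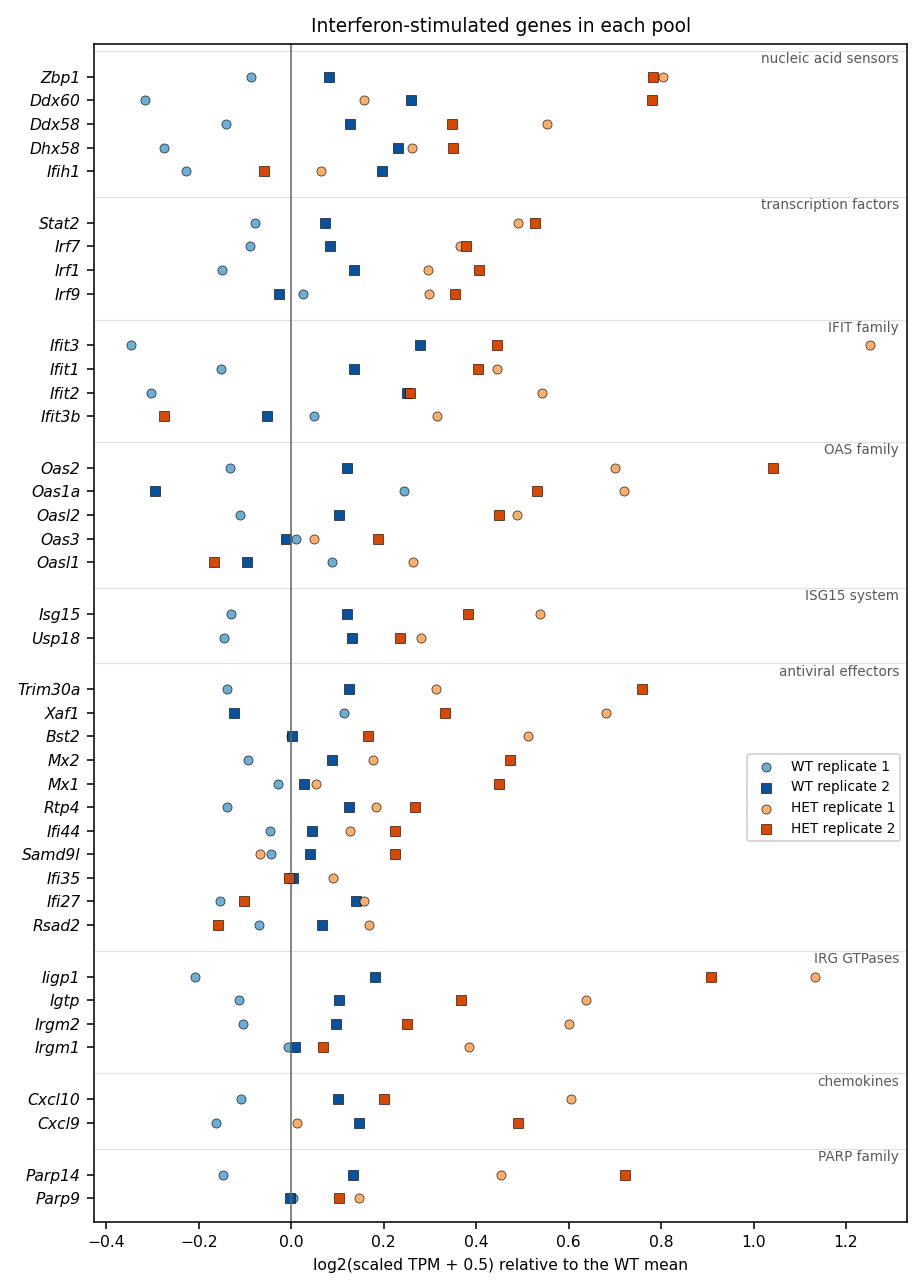
Level of each gene in each of the 4 pools, as log2(scaled TPM + 0.5) relative to the mean of the WT pools, grouped by role. Light blue circles (WT replicate 1) are leftmost for 29 of 39 genes, and orange symbols (HET) are rightmost for 38.

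Of the 5 nucleic acid sensors among the chosen genes, Zbp1 differed most. Zbp1 encodes a sensor of left-handed double-stranded nucleic acid that can start necroptosis (gene on chromosome 2, 173206612 to 173218923, mm10). It was at 0.612 and 0.748 TPM in the WT pools against 1.56 and 1.53 TPM in the pools labelled HET, from 63, 85, 166 and 189 reads. The pools of each genotype lay close together and the groups far apart: the ratio of means was 2.27 and the log2 fold change 0.80 ± 0.19 (SE; adjusted p = 0.622 by limma). Ddx58, which encodes the RNA sensor RIG-I, was at 6.03 and 7.36 TPM in WT against 10.1 and 8.66 TPM in HET, without overlap (ratio 1.40). Dhx58, which encodes the related helicase LGP2, was at 1.11 and 1.79 TPM and 1.84 and 1.98 TPM, so that its HET pools barely cleared WT replicate 2. Ifih1, the gene of the RNA sensor MDA5, was at 3.54 and 4.92 TPM in WT against 4.45 and 4.04 TPM in HET, and the groups overlapped (log2 fold change 0.018 ± 0.20, SE). Ddx60, a helicase gene, was spread from 0.312 to 1.23 TPM, with WT replicate 2 (0.708 TPM) above HET replicate 1 (0.627 TPM).

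The 4 transcription factors among the chosen genes were uniform, with ratios of means from 1.27 to 1.46. All were higher in both pools labelled HET than in both WT pools, against 21.8% of all tested genes. Other factors, among them Irf5, are counted below with the upstream sensors and adaptors. Stat2 (chromosome 10, 128270559 to 128292849) was at 5.43 and 6.08 TPM in the WT pools against 8.28 and 8.52 TPM in the pools labelled HET. Its log2 fold change was 0.51 ± 0.14 (SE), with a 95% interval from 0.17 to 0.85 (limma adjusted p = 0.622). Irf9, whose product joins STAT2 on the ISRE, was at 6.33 and 6.09 TPM in WT against 7.75 and 8.08 TPM in HET. For Irf7, which drives the amplification of type I interferon, the values were 5.55 and 6.32 TPM and 7.79 and 7.86 TPM. Irf1, an early target of interferon gamma, was at 7.61 and 9.39 TPM in WT against 10.6 and 11.4 TPM in HET. In each of these 4 genes the HET pools lay closer to each other than to either WT pool.

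The IFIT genes, which encode proteins that bind viral RNA, lie close together on chromosome 19 and differed among themselves. Ifit1 was at 3.07 and 3.86 TPM in WT against 4.90 and 4.75 TPM in the pools labelled HET (ratio 1.39). Ifit2 was at 6.77 and 10.2 TPM in WT against 12.6 and 10.2 TPM in HET, where WT replicate 2 and HET replicate 2 nearly coincide. Ifit3 was at 5.62 and 8.94 TPM and 18.0 and 10.1 TPM, so that its log2 fold change of 0.88 ± 0.35 (SE) rested largely on HET replicate 1 and was 0.48 without that pool and 1.28 without HET replicate 2. Ifit3b, with the same promoter stretch as Ifit3, was at 6.75 and 6.26 TPM in WT against 8.21 and 5.29 TPM in HET, and the groups overlapped (log2 fold change 0.020 ± 0.22, SE). Both copies are uncertain, because 51.2% of the 50-base stretches of Ifit3 transcripts and 878 of the 1951 of Ifit3b also occur in another gene, chiefly the other copy, and the deposited values came from alignments marked unique.

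In the OAS family, whose enzymes make the 2′-5′ oligoadenylates that activate RNase L, the differences ran from small to large. Oas2 (chromosome 5, 120730333 to 120749853) was at 0.547 and 0.747 TPM in the WT pools against 1.36 and 1.86 TPM in the pools labelled HET, from 71, 107, 183 and 290 reads. With a ratio of 2.49 it had the largest relative difference of the 39 genes, and its log2 fold change was 0.88 ± 0.22 (SE; adjusted p = 0.622 by limma). Oas1a was at 1.71 and 1.02 TPM in WT against 2.57 and 2.20 TPM in HET, one of few genes with WT replicate 2 as the lowest pool. Its value is uncertain, as 57.6% of its 50-base stretches also occur in another gene, led by Oas1g. Oasl2, a relative of these enzymes with a ubiquitin-like part, was at 2.39 and 2.86 TPM and 3.88 and 3.77 TPM (ratio 1.46). Oas3 was barely detected, at 0.0835 to 0.170 TPM from 19 to 42 reads per pool, and Oasl1, from 95 to 125 reads, overlapped between groups with a log2 fold change of 0.051 ± 0.22 (SE).

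Isg15 encodes a ubiquitin-like protein that is joined to other proteins during the interferon response, and Usp18 encodes the protease that removes it and also dampens signalling at the type I receptor. Isg15 was at 7.94 and 9.54 TPM in the WT pools against 12.9 and 11.5 TPM in the pools labelled HET, without overlap, and the log2 fold change was 0.47 ± 0.15 (SE; 95% interval 0.10 to 0.83; adjusted p = 0.622 by limma). Usp18 was at 2.17 and 2.74 TPM in WT against 3.09 and 2.98 TPM in HET. Its HET pools also lay above its WT pools, by less (ratio 1.24; 95% interval of the log2 fold change -0.18 to 0.71). Uba7, which encodes the activating enzyme for ISG15, was not among the chosen genes and is counted with the pathway genes below.

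Among the 11 antiviral effectors the differences were smallest, with a median log2 fold change of 0.23, and 7 of the 11 lay above both WT pools in both HET pools, against 21.8% of all tested genes. Bst2, the gene of the membrane protein tetherin that holds budding virus back, was at 32.7 and 32.8 TPM in WT against 46.9 and 36.8 TPM in the pools labelled HET (ratio 1.28). Trim30a, a regulator of innate signalling, was at 3.69 and 4.53 TPM and 5.22 and 7.30 TPM, and Xaf1, which encodes an antagonist of the apoptosis inhibitor XIAP, was at 2.85 and 2.35 TPM and 4.47 and 3.40 TPM. These 2 genes had the largest values of the group, 0.54 ± 0.21 and 0.51 ± 0.20 (SE), and in each a different HET pool was the higher one. Rsad2, the gene of the antiviral enzyme viperin, was at 13.1 and 14.5 TPM in WT against 15.6 and 12.3 TPM in HET, so the groups overlapped although its promoter holds an ISRE core. The same overlap was seen in the most abundant members of the whole set, Ifi27 (55.6 and 68.2 TPM in WT against 69.1 and 57.7 TPM in HET) and Samd9l (43.5 and 46.1 TPM, 42.8 and 52.4 TPM), and in Ifi35. Rtp4 and Ifi44 had ratios of 1.19 and 1.14 without overlap. The myxovirus resistance genes Mx1 and Mx2 were at 0.163 to 0.423 and 0.569 to 1.08 TPM, and for Mx1 this rested on 18 to 56 reads a pool.

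Immunity-related GTPases (IRG), which in mouse cells attack the membranes around intracellular pathogens and answer mainly to interferon gamma, included the gene with the largest log2 fold change. Iigp1 (chromosome 18, 60376029 to 60392627) was at 5.46 and 7.31 TPM in the WT pools against 14.6 and 12.4 TPM in the pools labelled HET, from 497, 734, 1372 and 1355 reads. Both HET pools lay well above both WT pools, the ratio of means was 2.11, and on the log2 scale the difference was 1.03 ± 0.18 (SE; 95% interval 0.60 to 1.46). Adjusted over all genes, the limma adjusted p = 0.622. Igtp was at 12.5 and 14.6 TPM in WT against 21.3 and 17.6 TPM in HET (0.51 ± 0.15, SE), and Irgm2 at 8.54 and 9.90 TPM and 14.2 and 11.1 TPM (0.43 ± 0.17, SE). Igtp and Irgm2 overlap on chromosome 11 and share 162 exon bases on 1 strand, so a part of their reads cannot be told apart. Irgm1, a regulator of the other IRG proteins, was at 15.1 and 15.3 TPM and 20.01 and 16.0 TPM. In all 4 genes HET replicate 1 was the highest pool and WT replicate 1 the lowest.

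The chemokines Cxcl9 and Cxcl10, which attract activated T cells through the receptor CXCR3, were low. Cxcl10 was at 2.54 and 3.02 TPM in WT against 4.50 and 3.27 TPM in the pools labelled HET. Cxcl9, which answers almost wholly to interferon gamma, was at 1.03 and 1.40 TPM and 1.23 and 1.91 TPM, and its groups overlapped. Of the PARP family, whose members attach ADP-ribose to proteins, Parp14 was at 3.29 and 4.11 TPM in WT against 5.25 and 6.42 TPM in HET (0.59 ± 0.18, SE; adjusted p = 0.622 by limma). Parp9 was nearly flat at 8.42 and 8.37 TPM and 9.35 and 9.06 TPM (ratio 1.10), and 9.40% of its exon bases overlap Dtx3l on the other strand, whose reads may be shared.

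Other genes of the pathway, from lists drawn up by known function, differed by role. Interferon genes themselves had almost no reads. Of 21 ligand genes 15 had 0 reads in every library, the type I gene Ifnb1 among them. For a library of this size 0 reads allow up to 3, and the limit covers counting error only. The type II gene Ifng had between 1 and 4 reads per library (WT pools, 0.106 and 0.0240 TPM; HET pools, 0.0513 and 0.0662 TPM), too few for a comparison. The 6 receptor genes differed little, with log2 fold changes from -0.080 for Ifnar2 to 0.12 for Ifnar1 and a median of 0.0071. Within those bounds lay Ifngr1 (0.071), Ifngr2 (-0.046), the lambda receptor gene Ifnlr1 (0.035) and Il10rb (-0.021). The kinase genes Jak1 (-0.0013) and Jak2 (0.018) were level, and Tyk2 was at 0.19.

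Among 13 upstream sensors and adaptors, 7 were above both WT pools in both HET pools, against 21.8% of all tested genes. Below both WT pools was 1, Irf5, against 23.1% of all tested genes. Tlr7 and Tlr9, endosomal sensors of RNA and DNA in dendritic and B cells, were at 0.588 and 0.853 against 1.82 and 1.90 TPM, and at 0.394 and 0.313 against 0.783 and 0.855 TPM (WT first). The negative regulators had a median of 0.0070, with Socs1 (0.19) and Socs3 (0.19), feedback inhibitors of the receptor kinases, at the upper end. Of 69 other interferon-stimulated genes tested, 43 lay above both WT pools in both HET pools and 1 below, beside the 21.8% and 23.1% of all tested genes given above, and their median was 0.29. Nlrc5, the transactivator of MHC class I genes, was at 0.589 and 1.09 TPM in WT against 1.90 and 2.04 TPM in HET. Ifi44l stood apart, at 0.448 and 0.429 TPM in WT, 6.01 TPM in HET replicate 1 and 0.415 TPM in HET replicate 2, so its log2 fold change of 1.38 ± 1.10 (SE) was that of 1 pool. In all, 0 of 100 tested pathway genes were called by limma, and limma-voom called 0. At an unadjusted p under 0.05 by limma 20 were higher and 0 lower, against 3.81% and 3.46% of all tested genes.

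**Figure D3:**
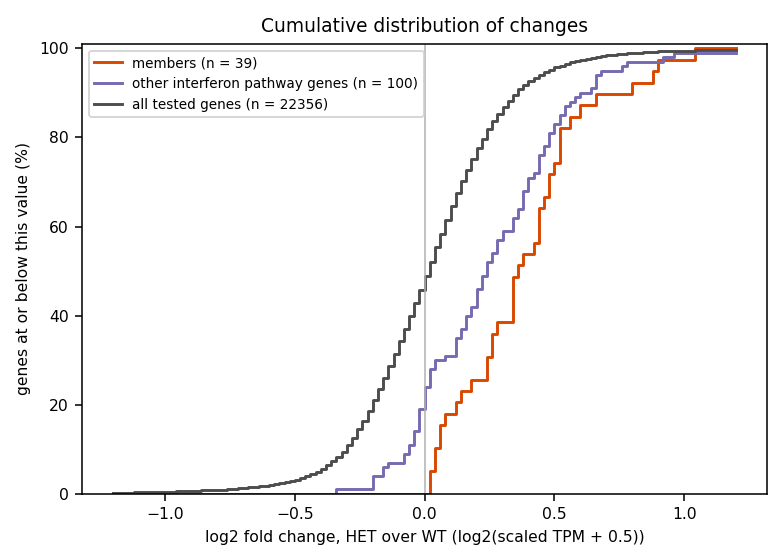
Share of genes, in percent, at or below each log2 fold change (HET over WT, log2(scaled TPM + 0.5)), for the 39 chosen genes, 100 other interferon pathway genes and all 22356 tested genes. The median is 0.36 for the chosen genes, 0.23 for the other pathway genes and 0.0067 for all tested genes.

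The promoter elements divided the genes little. The 17 chosen genes with an ISRE core had a median log2 fold change of 0.43, the 11 with none 0.33 and the 11 with no promoter sequence 0.33. Outside all the listed interferon genes, 458 tested genes held an ISRE core, with a median of 0.018, and 25.1% of them lay above both WT pools in both pools labelled HET, against 21.9% of the 12585 tested genes with no match. With a GAS core and outside the lists, 1081 genes had a median of 0.014. These are descriptions of sets of genes, with no test.

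Markers of macrophages and dendritic cells, which themselves express many of these genes, had higher levels in the same pools, though none passed the test. Their 19 genes in the table had a median log2 fold change of 0.49, and limma called 0 of them. Of the 19, 18 were above 0 and 15 lay above both WT pools in both HET pools, against 51.1% and 21.8% of all tested genes. The summed level was 192 and 219 TPM in WT against 316 and 304 TPM in the pools labelled HET. None was at 0: the leading marker Lyz2 was at 32.3 and 45.2 TPM in WT against 77.5 and 84.0 TPM in HET, while Csf1r, the next most abundant, was at 40.6 and 33.6 TPM and 39.8 and 31.9 TPM. In bulk RNA, more cells of a type and more RNA per cell cannot be told apart, and the part of these markers in the interferon-stimulated genes was not tested. Of 9 endothelial markers 2 lay above without overlap, a share near the 21.8% of all tested genes, with a median of 0.030 and a summed level of 352 and 373 TPM in WT against 379 and 365 TPM in HET (Plvap and Tek leading).

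Lymphocyte markers differed between pools of 1 genotype instead. The counts of markers without overlap below stand against 21.8% of all tested genes above and 23.1% below. The 10 B cell markers summed to 502 and 1171 TPM in WT against 221 and 1203 TPM in HET, mostly Igkc and Jchain, and 1 was without overlap. Their median log2 fold change was 1.01, with 8 of 10 above 0, though their median in HET replicate 1 lay below the WT mean (-0.17). The 16 T and NK cell markers, led by Trac and Lck, summed to 36.4 and 34.4 TPM and 18.2 and 39.2 TPM, with 5 above and 1 below without overlap. The 1 below was Trac, the largest part of these sums, at 27.5 and 25.7 TPM in WT against 8.52 and 20.2 TPM in HET. The median log2 fold change of the 16 was 0.31, with 13 above 0, against 51.1% of all tested genes. Plasmacytoid dendritic cells, the main makers of interferon alpha, had 5 tested markers of 6, summing to 8.50 and 12.3 TPM and 8.33 and 19.0 TPM (2 above, 1 below, Ly6d and Cox6a2 leading), and 1 of the markers, Cd300c, was at 0 in both WT pools. Neutrophil markers, led by S100a8 and S100a9, summed to 14.0 and 3.07 TPM in WT against 4.62 and 8.57 TPM in HET, with 0 of 5 tested genes without overlap. Proximal tubule markers, led by Kap, summed to 97749 and 53159 TPM in WT against 38995 and 52575 TPM in HET, with 2 above and 6 below. Most of each sum was Kap, at 87435 and 44594 TPM in WT against 30768 and 44555 TPM in HET.

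**Figure D4:**
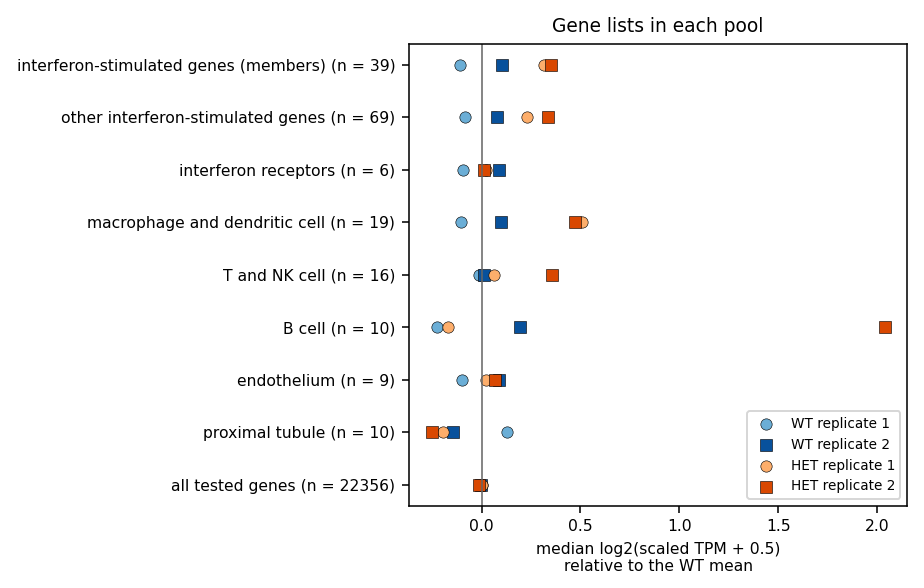
Median level of each gene list in each pool, as log2(scaled TPM + 0.5) relative to the mean of the WT pools; n is the number of tested genes. In the pools labelled HET the interferon-stimulated genes are at 0.31 and 0.35 and the macrophage and dendritic cell markers at 0.51 and 0.47, while the B cell markers are at -0.17 and 2.04.

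The pools also differed in sex-linked transcripts. Xist, made from the inactive X chromosome of females, was at 18.1 and 39.7 TPM in WT against 60.5 and 57.7 TPM in the pools labelled HET, the same order of WT pools as in most of the 39 genes. The 4 Y-linked genes summed to 51.6 and 34.5 TPM in WT against 8.63 and 39.3 TPM in HET. With Xist in the fit the median log2 fold change of the 39 genes was 0.17 and 30 were above 0. In that fit 1 of them was higher at an unadjusted p under 0.05 by limma. Over all 22356 tested genes 402 had such a p in either direction, against 1624 without Xist. With the Y-linked genes in the fit the median was 0.35 and 33 of the 39 were above 0. Each such fit leaves 1 degree of freedom, and Xist and genotype vary together here.

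In the authors' deposited table of 97 genes, 2 of the 39 are listed, both higher in HET. Of the genes tested here, 0.246% are listed there as higher. The authors' deposited table gives Iigp1 a log2 fold change of 0.85 (adjusted p = 0.00154) and Oas2 one of 0.79 (adjusted p = 0.0675). Of the other pathway genes, the authors' deposited table lists Tlr7 (0.86, adjusted p = 0.0224) and Nlrc5 (0.81, adjusted p = 0.0408). That table rests on the same 4 libraries and is not separate evidence.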

How the data were processed

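The authors deposited TPM per gene over summed exon lengths, from alignments marked unique per the file headers, for build mm10 per the submitters' processing notes, which also name DESeq, DESeq2 and edgeR without versions. No source used here names the aligner, the counter or the strand setting. The authors' deposited table of their comparison holds a mean normalized count (a signal averaged over libraries), log2 fold changes, a score (the test statistic) and p-values.

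TPM times exon length gave whole multiples of 1 step per library, taken as reads, within a tolerance of 0.001. TPM were divided by 0.859, 0.975 (WT replicates 1 and 2), 1.06 and 1.13 (HET), which carry a TMM scaling of the reads (M values trimmed by 0.3 and A values by 0.05, written out in R) over to TPM. The filter asked for 10 reads (scaled to the median depth) in 2 libraries, and for 15 over all libraries. The fit was limma 3.58.1 in R 4.3.3 with statmod 1.5.0, a variance trend and robust moderation, on log2(TPM + 0.5), adjusted over all genes with the Benjamini-Hochberg method. It was also run on simulated reads with known changes, as a check of the code and not of its power for these data. Pools of a genotype differed beyond counting error (chi-square per degree of freedom 50.8 and 52.7). Members and lists were chosen with earlier results of these data known. Lists are described by counts and medians. All members are named. Of other lists, the receptors, Ifnb1, Ifng, called genes, the 2 largest changes per list and the 2 most abundant markers are named, except items not reported here; Uba7, Irf5, Jak1, Jak2 and Cd300c were added after their values were seen. Alternatives varied scaling, pseudocount, filter, test, block, covariates and left-out pools.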

Additional observations from a re-analysis of the deposited data

How the results depend on the processing

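No member was called under any of the 15 alternatives. The members' median log2 fold change was 0.60 without scaling of the TPM, where that of all tested genes was 0.20, and 0.17 with Xist level as a covariate. Without 1 pool it ranged from 0.24 to 0.41, and members above 0 from 33 to 38. The count of all genes called was 0 without a filter, with limma-voom, with Xist as a covariate and with the replicate block, 1 without robust moderation, 5 with at least 1 read per 1000000 in 2 libraries and 32 with Y-linked genes as a covariate. It ranged from 0 (without WT replicate 1) to 97 (without HET replicate 2) when 1 pool was left out, where other pathway genes called ranged from 0 to 1 (Ifi44l, limma adjusted p = 0.00809). The replicate block, from numbers that the labels do not tie to shared kidneys, left the members' median at 0.36. In that fit 14 members were higher at an unadjusted p under 0.05 by limma, beside 1766 of all 22356 tested genes in either direction. Deviations of same-numbered pools had a correlation of 0.12 across genes.

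Some signs turned, also for members well above 0 before (Ddx60 at 0.50, Ifit2 at 0.43 and Dhx58 at 0.33). With Xist as a covariate the log2 fold changes were -0.42 (Ifih1), -0.28 (Ifi27), -0.18 (Dhx58), -0.15 (Ifit2), -0.15 (Rsad2), -0.043 (Ddx60), -0.029 (Rtp4), -0.022 (Cxcl9) and -0.017 (Usp18). With Y-linked genes they were -0.24 (Ifit3b), -0.16 (Rsad2), -0.13 (Oasl1), -0.13 (Ifi27), -0.097 (Ifih1) and -0.0024 (Ifi35). Median-of-ratios scaling gave -0.0044 for Rsad2. Leaving out 1 pool gave ranges of -0.19 to 0.22 (Ifih1), -0.27 to 0.31 (Ifit3b), -0.16 to 0.26 (Oasl1), -0.16 to 0.17 (Rsad2), -0.067 to 0.22 (Samd9l), -0.11 to 0.17 (Ifi27) and -0.0044 to 0.091 (Ifi35). The causes were not tested. Low depth limits Mx1 and Oas3.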
